A study of Mus musculus with 6 samples.

Results

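Basement membranes are thin sheets of matrix under endothelium and epithelium, built from a laminin network and a collagen IV network. Nidogens bind laminin at its gamma 1 chain and also bind collagen IV and perlecan, and so join the networks, while the heparan sulfate proteoglycans perlecan and agrin tie the sheet to growth factors and to cell surface receptors. In the alveolus the endothelial and epithelial sheets fuse into the wall across which gas is exchanged. The 7 genes described here encode such linkers and were chosen by symbol from a count table of 24951 genes: Nid1 and Nid2 (nidogens), Hspg2 (perlecan), Agrn (agrin), Tinagl1 (a secreted glycoprotein related to tubulointerstitial nephritis antigen), Sparc (a collagen-binding matricellular protein) and Fn1 (fibronectin). All 7 passed the filter on low counts, which left 14934 genes.

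The libraries came from lung cells of mouse pups at postnatal day 5 (P5), selected with magnetic beads against CD31, a surface protein of endothelium. The mutant pups, labelled Smad4 iECKO, had the genotype Smad4 f/f;Cdh5-CreERT2, in which a tamoxifen-inducible Cre recombinase under the endothelial Cdh5 promoter acts on floxed Smad4. The controls, labelled Wildtype, were Smad4 f/f pups without Cre. There were 3 mutant and 3 control libraries, each labelled as an independent biological sample. A sentence in the protocol calls the mice HHTiECKO and HHTf/f, and the labels give no dose or day of tamoxifen. Both groups carry floxed alleles, and no group has Cre with intact Smad4. Smad4 encodes the partner of the receptor-regulated SMAD proteins in BMP and TGF-beta signalling, pathways known for their action on matrix genes. The comparison asks whether transcripts of the linkers differ in CD31-selected lung cells of pups in which Smad4 was targeted in endothelium.

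Smad4 had 88.8, 72.9 and 94.2 CPM (counts scaled to library size with TMM factors) in mutant replicates 1, 2 and 3, against 188, 177 and 181 CPM in control replicates 1, 2 and 3. The Smad4 transcript was 2.13-fold lower in mutants (edgeR adjusted p = 0.000604) and remained in every mutant library, and gene counts do not give the share of cells in which the gene was deleted. Of the markers that define the labelled cell type, Pecam1, the gene of CD31, stood at 1719 ± 21.8 CPM in mutants and 1570 ± 91.3 CPM in controls, and Cdh5, the gene of VE-cadherin, at 2438 ± 69.6 and 2185 ± 112 CPM in the same groups (SD, n = 3 each). Of the 15 endothelial identity markers tested, 1 was called higher in mutants, 3 were called lower and 11 did not pass (edgeR, adjusted p under 0.05). The 4 that passed are named here after their values were seen. Robo4, an endothelial guidance receptor, averaged 407 CPM in mutants and 302 CPM in controls (adjusted p = 0.0263). The 3 that fell were Tek, the angiopoietin receptor, at 542 CPM in mutants and 765 CPM in controls (0.0128), Flt1, a VEGF receptor, at 448 and 590.1 CPM (0.0337), and Sox17, a transcription factor, at 175 and 221 CPM (0.0426) in the same groups. Without mutant replicate 2, and likewise without control replicate 3, 0 of the 15 were called, and without any single one of the other libraries 1 or 2 were. Reads assigned to genes came to 16041786 to 20172318 per mutant library and 14093564 to 21113926 per control library. Across the 14934 genes, 488 (3.27%) were called at a Benjamini-Hochberg adjusted p under 0.05 in edgeR's quasi-likelihood test. Leaving out mutant replicate 2 made that count 211, leaving out control replicate 2 made it 293 and leaving out control replicate 3 made it 325.

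None of the 7 linkers passed the test. For 6 of them the mutant level was the higher one, by a fitted factor of 1.08 to 1.29, and for Fn1 it was the lower one, at a fitted 0.912 of the control level. In edgeR 0 of 7 were called, against 3.27% of all tested genes (1.93% higher and 1.34% lower in mutants). DESeq2 and limma-voom also called 0 of 7, against 4.83% and 2.96% of the genes they tested. At an unadjusted p under 0.05 there were 4 of 7 (Nid1, Tinagl1, Sparc and Hspg2), where 14.0% of all tested genes stood under that level. In TMM-scaled values the mutant and control libraries did not overlap for Nid1, Tinagl1 and Sparc, each higher in mutants, and for Fn1, lower in mutants, and the same 4 genes showed no overlap with upper-quartile factors, with DESeq2's size factors and with no factor. The share of all tested genes without overlap was 20.6%, with 11.6% higher and 9.04% lower. The median log2 fold change of the 7 was 0.24, and that of all tested genes was -0.00242.

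**Figure D1:**
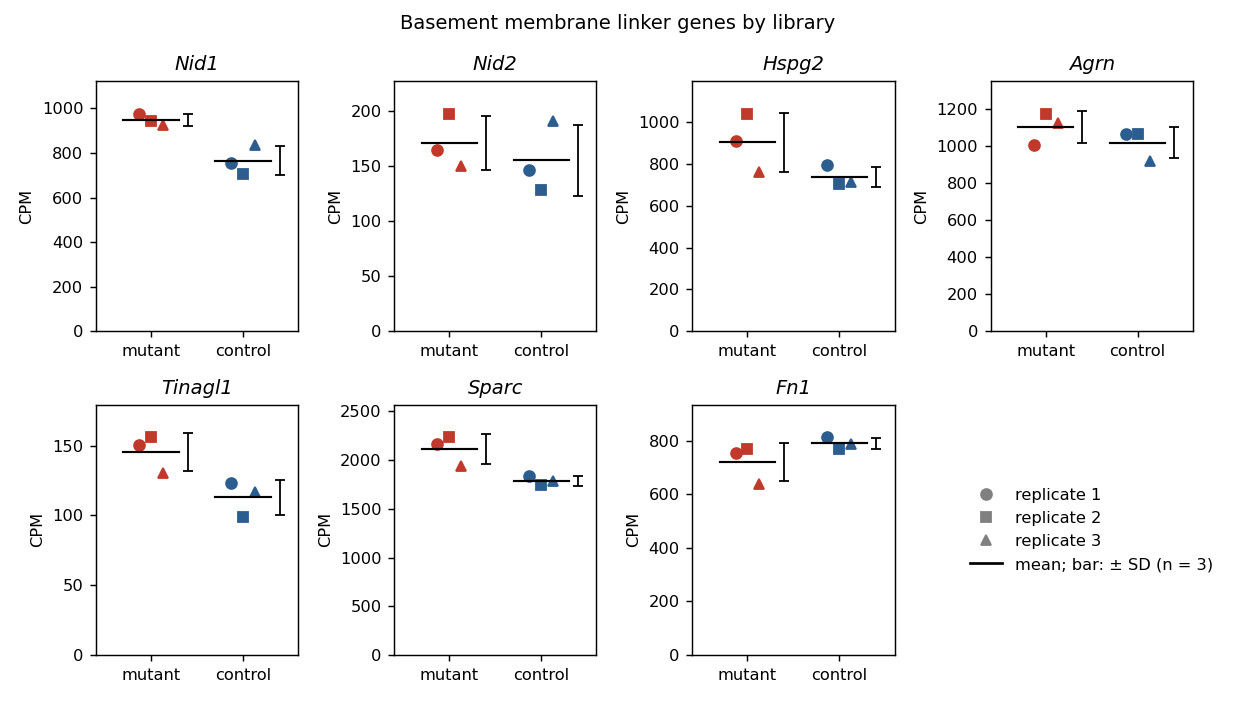
Level of each linker gene in CPM (vertical axis, from 0) in the 3 mutant and 3 control libraries, with marker shape giving the replicate, lines the group means and bars ± SD (n = 3). Nid1, Tinagl1 and Sparc show no overlap with all mutant libraries above all control libraries, and Fn1 shows no overlap in the opposite direction, where the gap is that between 768 and 769.7 CPM.

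The nidogens differed from each other in level and in spread. Nid1 (ENSMUSG00000005397.8, chromosome 13 from 13437551 to 13512269 on the plus strand, GRCm38) had 976, 945 and 924 CPM in mutant replicates 1, 2 and 3, against 756, 705 and 836 CPM in control replicates 1, 2 and 3. The lowest mutant library stood above the highest control library. The log2 fold change was 0.31 (SE 0.09), and its adjusted p of 0.102 in edgeR missed the threshold. Without adjustment its 95% interval ran between 0.12 and 0.50 on the log2 scale.

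Nid2 (ENSMUSG00000021806.4, chromosome 14 from 19751265 to 19811787, plus strand) had 164, 197 and 149.9 CPM in mutant replicates 1, 2 and 3, against 147, 128 and 191 CPM in control replicates 1, 2 and 3. The groups overlapped, since control replicate 3 was near the highest mutant library. The log2 fold change was 0.13 with a 95% interval between -0.22 and 0.49 (edgeR adjusted p = 0.765). In GENCODE M21 the exons of Nid2 share 437 bases with those of Rtraf on the other strand, and Rtraf had 86.2 ± 3.31 CPM in mutants and 74.5 ± 4.18 CPM in controls (SD, n = 3 each). Whether counting used strand is not given in the sources used here, so reads of the shared bases may not be assigned to the right gene. The deposited counts of Nid1 were 5.63 ± 0.74 times those of Nid2 in mutant libraries and 5.01 ± 0.57 times in control libraries, a ratio that overlapped between groups.

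Perlecan and agrin carry heparan sulfate chains. Hspg2 (ENSMUSG00000028763.17, chromosome 4 from 137468769 to 137570630, plus strand) had 909, 1042 and 761 CPM in mutant replicates 1, 2 and 3, against 796, 706 and 714.5 CPM in control replicates 1, 2 and 3. Mutant replicate 2 was the highest of the 6, and mutant replicate 3 lay below control replicate 1. Its fold change was 0.29 on the log2 scale (SE 0.12, edgeR adjusted p = 0.278). That estimate was 0.18 without mutant replicate 2 and 0.40 without mutant replicate 3, neither of them called.

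Agrin anchors laminin to alpha-dystroglycan and is also known for clustering acetylcholine receptors at the neuromuscular junction. Agrn (ENSMUSG00000041936.18, chromosome 4 from 156165290 to 156197488, minus strand) had 1004, 1173 and 1122 CPM in mutant replicates 1, 2 and 3, against 1062, 1066 and 919 CPM in control replicates 1, 2 and 3. The groups overlapped, with the lowest mutant library below 2 of the 3 control libraries. Its log2 fold change of 0.11 was the smallest of the 7 in size (95% interval between -0.09 and 0.32, edgeR adjusted p = 0.643).

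Tinagl1 (ENSMUSG00000028776.14, chromosome 4 from 130164454 to 130175122, minus strand) encodes a matricellular protein that binds integrins. It had 150.3, 156 and 130.3 CPM in mutant replicates 1, 2 and 3, against 123, 98.8 and 117 CPM in control replicates 1, 2 and 3. All mutant libraries were above all control libraries. With 0.36 its log2 fold change was the largest of the 7 (SE 0.11, edgeR adjusted p = 0.119). Its 95% interval, without adjustment, ran between 0.13 and 0.60.

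SPARC binds collagen IV and other collagens and modulates how cells attach to matrix. Sparc (ENSMUSG00000018593.13, chromosome 11 from 55394500 to 55423183, minus strand) had 2170, 2234 and 1937 CPM in mutant replicates 1, 2 and 3, against 1839, 1741 and 1785 CPM in control replicates 1, 2 and 3. The groups were separated by the gap between 1937 and 1839 CPM. The difference was 0.24 on the log2 scale (SE 0.08, edgeR adjusted p = 0.189), with an unadjusted 95% interval between 0.06 and 0.42.

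Fibronectin forms fibrils that cells pull together through integrins and is not part of the core laminin and collagen IV sheet, but it lies in the provisional matrix of growing vessels. Fn1 (ENSMUSG00000026193.15, chromosome 1 from 71585520 to 71653200, minus strand) had 754, 768 and 637 CPM in mutant replicates 1, 2 and 3, against 812, 769.7 and 786 CPM in control replicates 1, 2 and 3. Mutant replicate 3 was the lowest library, and mutant replicate 2 and control replicate 2 were nearly level. The log2 fold change was -0.13 with a 95% interval between -0.34 and 0.07 (edgeR adjusted p = 0.573). Gene counts do not separate the EDA and EDB splice forms of fibronectin. Exons of Fn1 share 292 bases with those of Apol7d on the other strand.

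**Figure D2:**
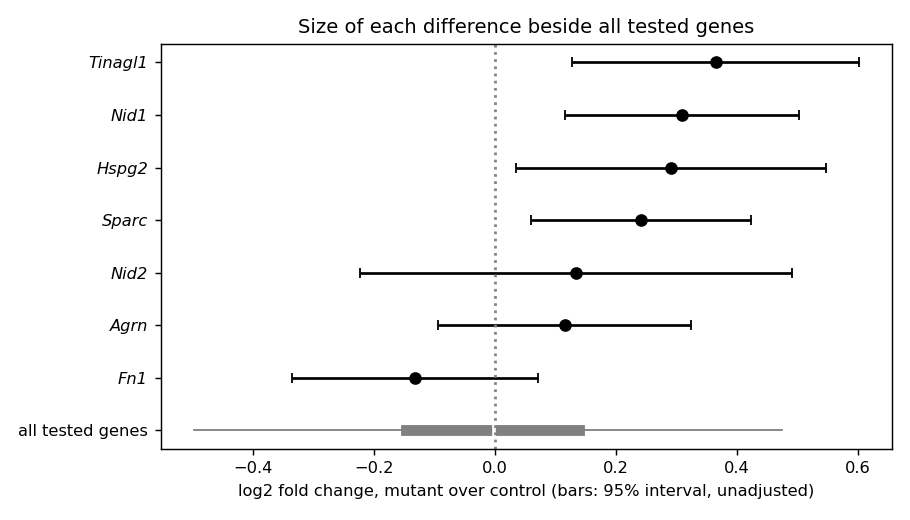
Log2 fold change of mutant over control for each linker gene (points) with its unadjusted 95% interval (bars), above the spread of all 14934 tested genes (thin grey line for the 5th to 95th percentiles, -0.50 to 0.47, thick grey line for the 25th to 75th, -0.15 to 0.14, white tick for the median). The points run from -0.13 for Fn1 to 0.36 for Tinagl1, all inside the 5th to 95th percentiles of all genes.

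Levels were compared between genes per kilobase of merged exons. Sparc was highest in both genotypes, at 558 ± 41.3 CPM per kilobase in mutants and 472 ± 12.9 CPM per kilobase in controls (SD, n = 3 each). Nid1 followed with 137 ± 3.78 in mutants and 110 ± 9.54 in controls, and Agrn with 118 ± 9.32 in mutants and 109 ± 9.02 in controls, all as levels in CPM per kilobase. These neighbours overlapped over the 6 libraries, with 101 to 141 CPM per kilobase for Nid1 and 99 to 126 for Agrn. Fn1 and Hspg2 overlapped at 54.5 to 69.5 and 49.3 to 72.8 CPM per kilobase. Hspg2 averaged 63.2 ± 9.82 CPM per kilobase in mutants, against 51.6 ± 3.48 in controls, and Fn1 averaged 61.6 ± 6.18 in mutants, against 67.5 ± 1.81 in controls. The lowest pair was Nid2, at 24.8 to 38.1 CPM per kilobase, and Tinagl1, at 22.7 to 35.8. With the longest transcript as the length in place of merged exons, 4 of the 7 genes kept their place in the order. The control level of Tinagl1 was then 54.2 in place of 25.9 CPM per kilobase, and that of Sparc 777 in place of 472. Fn1 had 94.9, Hspg2 52.1 and Nid2 31.8 in controls with that length. Tinagl1 thus stood above Hspg2, and Nid2 and Tinagl1 were no longer the lowest pair. Whether Fn1 and Hspg2 overlapped with that length was not computed.

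Ratios between linkers within a library do not depend on the scaling of libraries. Of the 21 pairs, 5 had ratios that did not overlap between mutant and control libraries, 4 of them among the 6 pairs with Fn1. For Sparc, Tinagl1 and Nid1 over Fn1 this had to be so. Each of those genes was higher in mutants without overlap, and Fn1 was lower without overlap. Their ratios to Fn1, and the exact p of those ratios, therefore restate the separation of the single genes and add no separate evidence. The counts of Sparc were 2.88, 2.91 and 3.04 times those of Fn1 in mutant replicates 1, 2 and 3, against 2.27, 2.26 and 2.27 times in control replicates 1, 2 and 3. The ratio averaged 2.94 ± 0.088 in mutants and 2.27 ± 0.0049 in controls (SD, n = 3 each), so the control libraries nearly coincided. On the log2 scale the difference was 0.38. The counts of Tinagl1 over those of Fn1 were 0.199, 0.203 and 0.205 in mutant replicates 1, 2 and 3, against 0.151, 0.128 and 0.149 in control replicates 1, 2 and 3, a difference of 0.51 on the log2 scale. Nid1 over Fn1 averaged 1.33 ± 0.11 in mutants and 0.97 ± 0.081 in controls, and Hspg2 over Fn1 averaged 1.25 ± 0.09 in mutants and 0.936 ± 0.039 in controls (SD, n = 3 each). The fifth pair was Tinagl1 over Sparc, with 0.0688 ± 0.0013 in mutants and 0.0631 ± 0.0055 in controls. The two-sided exact permutation p was 0.1 for each of these 5 pairs, the smallest that 3 against 3 libraries can give, and 0.42 after adjustment over the 21 pairs. A ratio without overlap was common over Sparc, where 36.0% of the other tested genes showed no overlap. The like share over Fn1 was not computed, so the 4 of 6 pairs with Fn1 have no matching background.

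**Figure D3:**
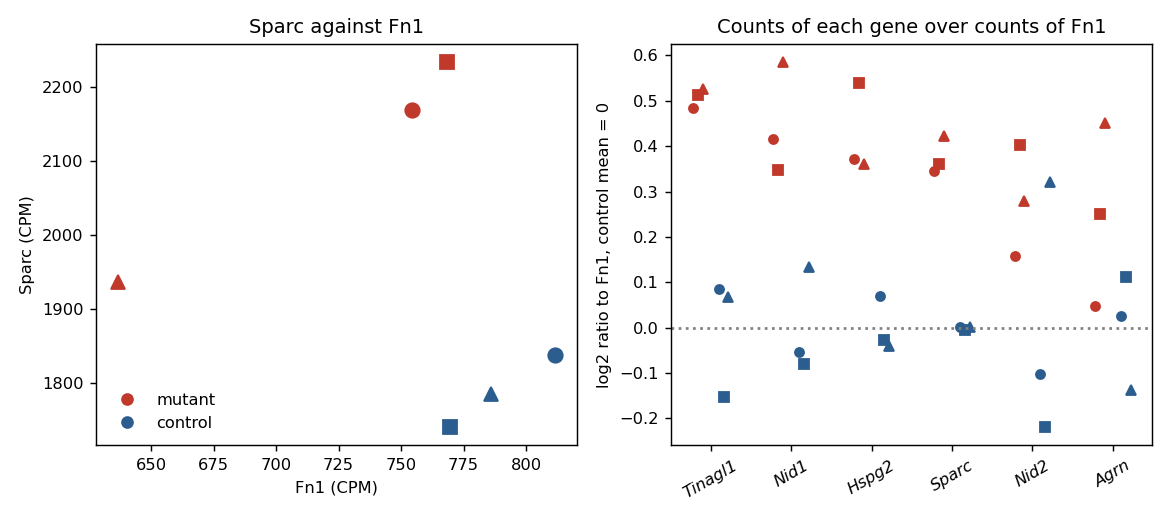
Left, Sparc against Fn1 in CPM in each library, mutant in red and control in blue, with marker shape giving the replicate. Right, log2 of the counts of each other linker over those of Fn1, set to 0 at the control mean. For Sparc the 3 control points nearly coincide and the mutant points stand above them by 0.38 on average, while the groups overlap for Nid2 and Agrn.

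Within a group the linkers varied together to unequal degrees. Over deviations from the group means in the 6 libraries, given as a description, Sparc and Fn1 had a Pearson r of 0.99, Hspg2 and Sparc 0.96, and Hspg2 and Fn1 0.93. Nid1 and Nid2 had an r of 0.82, Nid1 and Agrn -0.80, and Sparc and Agrn -0.03. The other pairs are not given here. These values share 6 libraries and their scaling factors. Each linker also had a gene among 141 tested partner genes whose log2 CPM was most alike over the 6 libraries, again as a description. Each such r is the largest of 141 values and keeps the difference between groups, and no chance level was computed. For Hspg2 it was Lamc1 (r = 0.97), the laminin chain that nidogens bind, for Sparc it was Col4a2 (0.97), a collagen IV chain, and for Tinagl1 it was P4hb (0.98), a protein disulfide isomerase. For Nid1 it was Ctsb (0.96), a cathepsin, for Fn1 Fbn1 (0.89), the fibrillin of microfibrils, for Agrn Sdc2 (0.88), a syndecan, and for Nid2 Col18a1 (0.84), a collagen proteoglycan. None of these 7 genes was called, and Col4a2 came nearest, with a log2 fold change of 0.37 (edgeR adjusted p = 0.061).

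The partners to which the linkers bind held called genes, where 3.27% of all tested genes were called (1.93% higher and 1.34% lower in mutants). Of the 11 laminin chain genes, 2 rose, 1 fell and 8 did not pass, with a median log2 fold change of 0.16. Those that rose were Lama4, at 649 ± 90.5 CPM in mutants and 249 ± 12.0 CPM in controls, and Lamb1, at 579.8 ± 121 CPM in mutants and 216 ± 16.6 CPM in controls, while Lamc3 fell to 5.22 ± 1.11 CPM in mutants, against 21.4 ± 5.65 CPM in controls (SD, n = 3 each). Lamc1, which carries the nidogen site, had 1045 ± 107 CPM in mutants and 862 ± 69.1 CPM in controls (edgeR adjusted p = 0.222). Of the 8 chains of collagens IV, XV and XVIII, 2 rose, 0 fell and 6 did not pass, with a median of 0.17. Col15a1 had a log2 fold change of 1.01 and Col4a1 one of 0.43 (edgeR adjusted p = 0.000651 and 0.0242). The call of Col4a1 ended without any single library other than mutant replicate 3, with adjusted p of 0.0553 (without control replicate 3) to 0.12 (without mutant replicate 2).

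Among 18 tested other components of the sheet, 1 rose, 1 fell and 16 did not pass, with a median of 0.00319. Hmcn1, the large fibulin-like protein hemicentin 1, fell to 267 ± 22.8 CPM in mutants, against 569 ± 56.8 CPM in controls (log2 fold change -1.09, edgeR adjusted p = 0.000604). Vwa1, which encodes a perlecan-binding protein known as WARP, rose to 13.6 ± 4.48 CPM in mutants, against 6.17 ± 1.06 CPM in controls (log2 fold change 1.14, edgeR adjusted p = 0.0338). The adjusted p of Vwa1 was 0.118, 0.136 and 0.0999 with mutant replicate 2, control replicate 2 and control replicate 3 left out in turn. It was 0.054 with limma-voom and 0.0522 with sex, inferred from transcripts, as a covariate. Of 3 tested relatives of SPARC, 1 rose and 2 did not pass. Sparcl1 (SPARC-like 1) had 672 ± 85.0 CPM in mutants and 459.7 ± 50.5 CPM in controls (SD, n = 3 each; edgeR adjusted p = 0.0298), a call that ended without mutant replicate 1 or 2 or control replicate 2 or 3 (0.078, 0.157, 0.0654 and 0.0947).

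Among 27 tested receptors and surface partners, 1 rose, 1 fell and 25 did not pass, with a median of 0.02. Sdc3, a syndecan, had a log2 fold change of 0.48 (edgeR adjusted p = 0.0115), which became 0.0563 and 0.052 without mutant replicate 2 and control replicate 2. Itga2, the alpha 2 chain of a collagen and laminin receptor, had one of -0.44 (edgeR adjusted p = 0.0473). Its call ended when any one of the 6 libraries was left out (0.0503 to 0.163) and with limma-voom (0.0502). It also ended with replicate number as a block (0.0518) and with inferred sex as a covariate (0.071). Dag1, the gene of dystroglycan, to which agrin and perlecan bind, had 614 ± 54.9 CPM in mutants and 615 ± 148 CPM in controls (edgeR adjusted p = 0.998). Itga5, the alpha chain of the main fibronectin receptor, had 479 ± 36.3 CPM in mutants and 376 ± 23.7 CPM in controls (edgeR adjusted p = 0.074). Dag1 and Itga5 lie outside the rule for named genes and were chosen after their values were seen.

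Genes that act on the linkers as enzymes or in assembly gave no calls in edgeR. Of 24 tested genes of heparan sulfate synthesis and editing, whose products build and trim the chains of perlecan and agrin, 0 were called and 3 stood under an unadjusted p of 0.05. Sulf1, an extracellular sulfatase that removes sulfate from those chains, had the smallest p, with 52.5 ± 0.324 CPM in mutants and 62.6 ± 2.64 CPM in controls (edgeR adjusted p = 0.189). Of 13 tested proteases, 0 were called and 1 stood under 0.05 without adjustment, Prss12 (neurotrypsin, which cleaves agrin), with 38.4 ± 3.20 CPM in mutants and 46.9 ± 6.88 CPM in controls. Of 17 tested genes of collagen folding and crosslinking, 0 were called and 1 stood under 0.05 without adjustment, Serpinh1 (the collagen chaperone HSP47), with 839 ± 51.8 CPM in mutants and 731 ± 48.1 CPM in controls. DESeq2 and limma-voom also called 0 in each of these 3 lists. Of 20 tested genes of the fibronectin and elastic fibre network, 0 rose, 1 fell and 19 did not pass, with a median of -0.00547. Mfap2, a microfibril glycoprotein, fell to 85.8 ± 8.01 CPM in mutants, against 119 ± 10.4 CPM in controls (edgeR adjusted p = 0.031). Its adjusted p was 0.10, 0.148, 0.0756 and 0.0739 without mutant replicates 1 and 2 and control replicates 1 and 3. Over all partner lists, 11 of 141 tested genes (7.80%) were called, against 3.27% of all tested genes. The count was 5 with mutant replicate 2 left out, and 6 with either control replicate 2 or control replicate 3 left out. Without these libraries in turn, 1.39%, 1.94% and 2.16% of all tested genes were called. The lists were chosen with earlier results of these data known, so their share is not independent evidence.

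**Figure D4:**
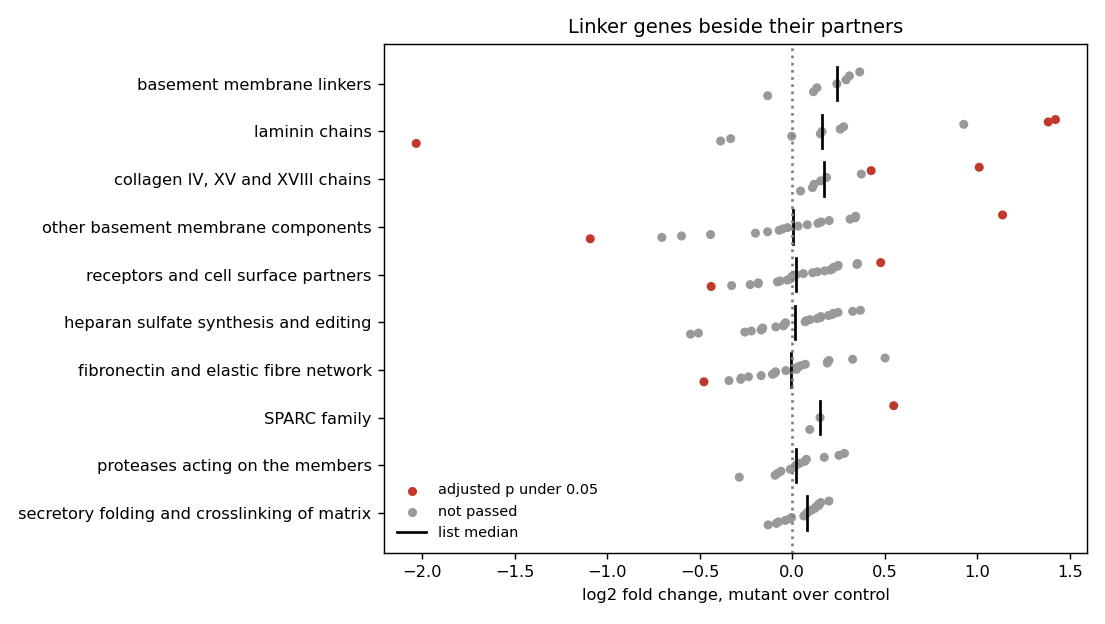
Log2 fold change of mutant over control for the linker genes and for each list of partner genes (1 point per tested gene, red where the adjusted p is under 0.05, black line for the list median). The linkers lie between -0.13 and 0.36 with no red point, while the laminin chains run from -2.03 for Lamc3 to 1.42 for Lamb1.

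Fibroblasts and mural cells are also known to make nidogens, SPARC and fibronectin. Of 15 fibroblast markers 1 was called, Col14a1, higher in mutants with a log2 fold change of 1.28 (edgeR adjusted p = 0.00014), and the list median was 0.20. Summed over the list they came to 1369 to 2028 CPM per mutant library and 1092 to 1605 CPM per control library. Of 13 smooth muscle and pericyte markers 0 were called by edgeR and by limma-voom, DESeq2 called 1, and 1 stood under an unadjusted p of 0.05 in edgeR, with a median of 0.17 and sums of 603 to 799.7 CPM per mutant library and 396 to 625 CPM per control library. That gene was in each case Rgs5, a pericyte marker named here after its values were seen, at 69.9, 60.5 and 107 CPM in mutant replicates 1, 2 and 3, against 44.1, 41.7 and 29.1 CPM in control replicates 1, 2 and 3 (edgeR adjusted p = 0.0776). The groups of Rgs5 did not overlap. With replicate number as a block, edgeR called Postn of the same list higher, and not Rgs5. None of the defining markers of either list was at 0 in all libraries. Col3a1, the most abundant fibroblast marker, had 573, 680 and 459 CPM in mutant replicates 1, 2 and 3, against 519, 589 and 379 CPM in control replicates 1, 2 and 3. Relative to the control mean, list medians of log2 CPM in mutant replicates 1, 2 and 3 were 0.29, 0.38 and -0.05 for fibroblast markers, 0.21, 0.52 and -0.08 for smooth muscle and pericyte markers and 0.28, 0.32 and 0.12 for the linkers, so replicate 2 was highest and replicate 3 lowest in each. The same order held for epithelial markers (-0.056, 0.06 and -0.196), laminin chains (0.291, 0.415 and -0.061) and endothelial markers. The endothelial values lay close together (0.04, 0.053 and -0.056). The order of the replicates was not tested. It did not hold for mesothelial, macrophage and monocyte, neutrophil, lymphocyte or platelet markers. The values in control replicates 1, 2 and 3 were 0.16, 0.19 and -0.31 for fibroblast markers, 0.20, 0.14 and -0.37 for smooth muscle and pericyte markers and 0.04, -0.06 and -0.002 for the linkers. The part of such cells in the values of the linkers was not tested, and in bulk libraries fewer cells of a type cannot be told apart from less RNA per cell.

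**Figure D5:**
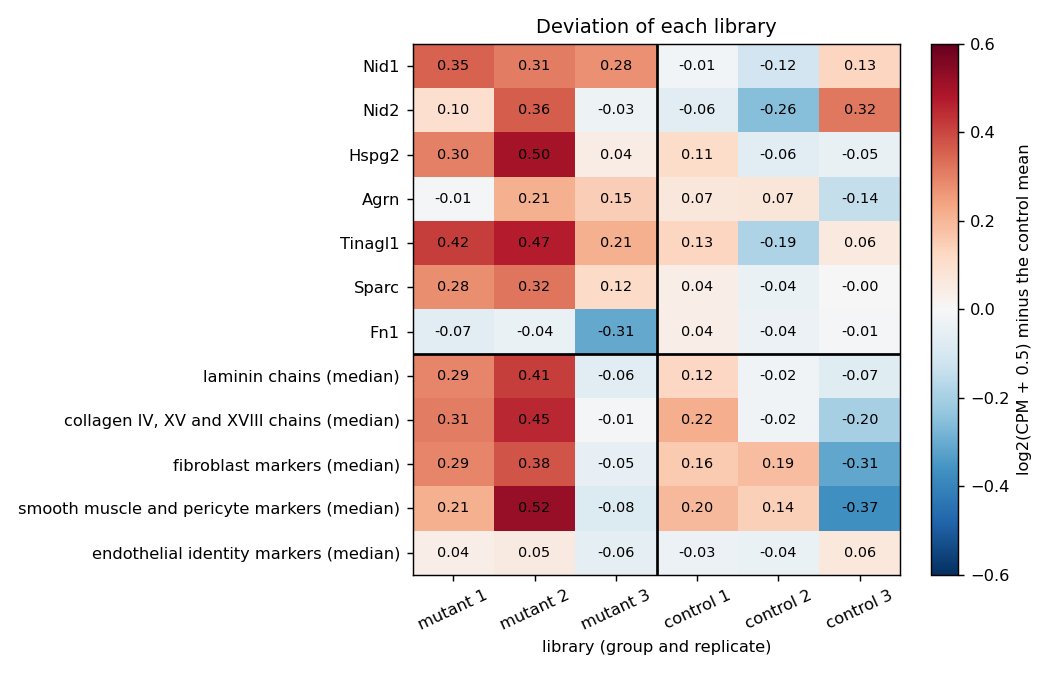
Deviation of each library from the control mean in log2(CPM + 0.5), for the 7 linker genes and as medians for 5 gene lists, with mutant libraries left of the line and control libraries right of it. Among the mutants, replicate 2 is highest for Nid2, Hspg2, Agrn, Tinagl1, Sparc and Fn1 and for the medians of all 5 lists. The median of the endothelial markers lies between -0.06 and 0.06, over single markers of which 1 was called higher and 3 lower in mutants.

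Megakaryocytes and macrophages are also known to hold or make SPARC and fibronectin. The 6 megakaryocyte and platelet, 12 macrophage and monocyte, 6 neutrophil and 8 lymphocyte markers tested gave 0 calls in edgeR, with 0, 2, 0 and 3 of them under an unadjusted p of 0.05, where 14.0% of all tested genes stood. The 3 lymphocyte markers, named after their values were seen, were the B cell genes Cd79a, Cd79b and Ms4a1. Each was higher in mutants without overlap, while the list median was -0.015. DESeq2 called Ms4a1, as did edgeR with replicate number as a block and edgeR without mutant replicate 2. Without mutant replicate 1, edgeR called C1qb of the macrophage and monocyte list higher. Platelet marker sums were 52.9 to 76.6 CPM per mutant library and 49.9 to 74.3 CPM per control library. The 13 alveolar and airway epithelial markers, from cells that face the same basement membrane, gave 0 calls and 0 under an unadjusted p of 0.05, with sums of 3377 to 3808 CPM per mutant library and 2572 to 4774 CPM per control library. Without control replicate 3, edgeR called 2 of them lower, Lamp3 and Sftpa1. C1qb, Lamp3 and Sftpa1 are named here after their values were seen. The 6 mesothelial markers gave 0 calls, 0 of them under an unadjusted p of 0.05.

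SMAD proteins are known to bind short motifs with the letters GTCTG, and GC-rich ones such as GGCGCC. RefSeq start sites (GRCm38.p6) gave windows from 250 bases before to 50 bases after the start for 5 of the 7 genes, 7 windows in all, since Agrn and Tinagl1 each have 2. On both strands, GTCTG was found in 3 of the windows and GGCGCC in 2, with no window holding both. Of all 32851 promoter windows of the same length, 49.6% hold GTCTG and 11.9% hold GGCGCC. The windows with GGCGCC had 70.3% (Hspg2) and 83.3% (Agrn) G and C bases, against a median of 52.7% over all windows. The shares were not matched for this content. The 3 windows with a match after the start are printed because the deleted protein belongs to the family that binds such letters, with the matches in capitals.
Hspg2, chr4:137468553-137468852, plus strand: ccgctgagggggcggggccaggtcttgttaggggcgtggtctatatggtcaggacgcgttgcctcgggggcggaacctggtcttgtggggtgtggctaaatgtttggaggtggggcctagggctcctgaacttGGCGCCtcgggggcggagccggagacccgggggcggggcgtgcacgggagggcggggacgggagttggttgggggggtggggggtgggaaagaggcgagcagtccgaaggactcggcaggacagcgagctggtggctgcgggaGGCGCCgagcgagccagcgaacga
Tinagl1, chr4:130174753-130175052, minus strand: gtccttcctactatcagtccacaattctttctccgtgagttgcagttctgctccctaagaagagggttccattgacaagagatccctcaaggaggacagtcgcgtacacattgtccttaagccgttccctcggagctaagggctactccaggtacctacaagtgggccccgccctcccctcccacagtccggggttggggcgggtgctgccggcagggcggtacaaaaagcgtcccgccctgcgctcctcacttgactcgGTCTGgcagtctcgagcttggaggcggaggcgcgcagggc
Sparc, chr11:55420031-55420330, minus strand: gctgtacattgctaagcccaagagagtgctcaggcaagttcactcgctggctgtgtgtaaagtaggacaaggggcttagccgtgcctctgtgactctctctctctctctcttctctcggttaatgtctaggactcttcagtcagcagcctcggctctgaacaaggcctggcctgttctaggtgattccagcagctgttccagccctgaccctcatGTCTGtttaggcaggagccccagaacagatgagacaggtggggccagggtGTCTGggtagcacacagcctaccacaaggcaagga
Counted from the start site, GGCGCC begins at -117 and 27 in the Hspg2 window, and GTCTG begins at 11 in that of Tinagl1 and at -35 and 16 in that of Sparc. These matches are letters only, and none of the 3 genes passed the test.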

How the data were processed

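The authors deposited raw counts, whole numbers of reads per gene symbol and library, as a table of all 6 libraries and as 1 file for each, and 0 values differed between these forms. Per the submitters' processing notes the build was mm10 and DESeq2 was used in a role not stated. The aligner, counter, annotation and use of strand were each not given in the sources used here. Reads with no feature (53.9% to 58.2% of each library) and ambiguous reads (0.288% to 0.366%) entered neither library sizes nor tests. The floor of 3 counts corresponds to 0.142 to 0.213 CPM, at 14093564 to 21113926 assigned reads a library.

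Counts were fitted in R 4.3.3 with edgeR 4.0.16: filterByExpr with the group design, TMM factors, robust quasi-likelihood fits with no covariate, a two-sided F test and Benjamini-Hochberg adjustment over all 14934 tested genes, called under 0.05. The SE is the size of the log2 fold change divided by the square root of F, and 95% intervals use its degrees of freedom with no adjustment. The functions were tested on simulated data. There edgeR recovered 43.28% of 67 changes of 1.5-fold, 80.6% of 67 of 2-fold and 95.45% of 66 of 4-fold, with 18 false calls. Changes as small as those fitted for the linkers were not simulated. Alternatives were DESeq2 1.42.0, limma-voom (limma 3.58.1), other scaling factors, no filter, covariates and leaving out each library. Sex was not taken from the labels but inferred from Xist against Y-linked genes, with 2 female and 1 male libraries in each group. P-values of the fits set the difference between groups against the spread within them, moderated over all genes, for these 6 libraries. All 6 count columns carry the same tag, lit14, in their names, and the sample titles do not say what it marks. Replicates of a group differed by more than sampling noise (chi-square per degree of freedom at least 12.3).

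Merged exon lengths and coordinates were taken from GENCODE M21 (GRCm38, the assembly of mm10), matched by symbol. Ratios between genes were compared with a two-sided exact permutation test. Genes named were every linker, Smad4, up to 3 called genes per partner list (or the 1 with the smallest p), abundant markers of other cells, and for each linker the partner gene most correlated with it. The linkers and all lists were chosen with earlier results of these data known, so no call in the partner lists is independent evidence. This holds for Lama4, Lamb1, Lamc3, Col15a1 and Col4a1 and for the other called partners.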

Additional observations from a re-analysis of the deposited data

How the results depend on the processing

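The count of called linkers was 0 of 7 in each of the 13 alternatives, which were other scaling factors, no low-count filter, DESeq2, limma-voom, the replicate block, sex as a covariate and each of 6 fits without a library, and none of the 7 fold changes changed sign there. The smallest adjusted p among them was 0.0604 for Nid1 and 0.0798 for Tinagl1, both with DESeq2, and 0.0905 for Hspg2 without mutant replicate 3. Over the alternatives the log2 fold change ran from 0.25 to 0.38 for Nid1, 0.01 to 0.31 for Nid2, 0.18 to 0.40 for Hspg2, 0.05 to 0.17 for Agrn, 0.28 to 0.44 for Tinagl1, 0.20 to 0.30 for Sparc and -0.18 to -0.05 for Fn1. The log2 difference in the ratio of Sparc to Fn1 was 0.35 to 0.39 without each library in turn, an alternative chosen after seeing the data. DESeq2 called 747 genes in all, against 488, and the fits without a library called 211 to 428. Of the partner genes 11 were called, and 5 to 11 without a library, and DESeq2 called 5 laminin chains, against 3. Of the markers of other cell types 1 was called, 3 with DESeq2, 3 with the replicate block and 1 to 3 without a library. With the longest transcript as length 4 of 7 linkers kept their place in the order of levels. Same-numbered libraries did not deviate together (r of -0.0118, 0.0158 and 0.184), so the replicate numbers are not taken as pairs. The replicate block moved the count of called genes to 466 and ended the calls of Itga2 (adjusted p = 0.0518) and Col4a1 (0.0557), and only replicate 3 of each group correlated best with its own number. The lowest count of a linker in a library was 1387, for Tinagl1, and the linkers' unadjusted 95% intervals reach up to 0.60 on the log2 scale with 3 libraries a group.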
